A study of Mus musculus with 18 samples.

Results

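The regions described here are 459 sites of open chromatin in mouse embryonic stem (ES) cells. A peak was called at each of them in both control libraries of a Baf53a conditional knockout line and in neither library after Baf53a deletion. A peak was also called at each in both libraries of another line after Brg1 deletion. They were chosen from 377189 regions, made by merging the peaks of all 18 ATAC-seq lists of the series wherever peaks shared 1 bp or more. In ATAC-seq a transposase inserts adapters where DNA is accessible, and pileups of the sequenced fragments are called as peaks. Each selection value is a peak call in 6 libraries, so the calls in those libraries define the regions and are given as a description without a test.

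The cells were ES cells grown on gelatin with serum and LIF, and viable cells were sorted before the assay. The Baf53a line was Baf53a fl/- with an Actin-CreER transgene, so by that genotype its ethanol controls already carried 1 inactive allele. The titles and genotype labels give fl/- for this line, whereas the names of the deposited lists write flfl, and the labels are followed here. The other knockout line was Brg1 fl/fl with Actin-CreER, an inducible recombinase under the actin promoter. Cells of both lines were exposed for 24 h to ethanol or 0.8 µM tamoxifen and kept in new medium for another 48 h, with 2 libraries per line and treatment. Wild-type cells received 1 µM ICRF-193, an inhibitor of topoisomerase II, or DMSO for 24 h (2 libraries each) or 1 h (3 libraries each). The time of 1 h is that of the sample titles, whereas the protocol text describes a 24 h exposure of every wild-type sample, so each result by time rests on the titles. Each group is 1 line with separate passages as replicates, and the spread behind each p-value is the one among such passages. Lines, genotypes and treatments differ together between the knockout and wild-type groups, and their effects cannot be told apart between those groups.

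The BAF complex uses the energy of ATP to move or evict nucleosomes, and in ES cells Brg1 is its ATPase. Baf53a is an actin-related protein that joins BAF through the ATPase subunit and is also a subunit of the INO80 and TIP60 chromatin complexes. BAF keeps many enhancers of ES cells accessible. A region that is open without Brg1 and carries no peak without Baf53a is therefore a place where the readouts of these subunits differ in these lists.

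The lists held 46431 to 129880 peaks. The list of Brg1 tamoxifen replicate 2 was the shortest of the series, with 46431 peaks, and Brg1 tamoxifen replicate 1 held 84763. The Baf53a ethanol lists held 110503 and 83918 peaks and the Baf53a tamoxifen lists 88729 and 86960. Read depth is unknown, since the lists give a position and a score per peak and no counts. The score is the authors' own, and it is used here as a percentile, the rank of a peak within its own list from 0 to 100. Positions are in the mm9 build and are counted from 1. Annotation and sequence of that build were not used here, so the regions are named by position alone.

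Of the open regions without a peak after Baf53a deletion, a small share had peaks in both Brg1-deleted libraries. Both Baf53a ethanol libraries shared 57189 regions, and 6394 of these had no peak in either Baf53a tamoxifen library, a share of 11.2%. Of those 6394 regions, 459 (7.18%) had a peak in both Brg1 tamoxifen libraries, 1713 (26.8%) in 1 of them and 4222 (66.0%) in neither. Among all 57189 regions, 27191 (47.5%) had a peak in both Brg1 tamoxifen libraries. The gap narrowed among weak peaks, which made up most of the lost regions. In the weakest of 5 equal classes of the 57189 by Baf53a ethanol percentile, 5.73% of lost regions and 13.5% of all had a peak in both Brg1 tamoxifen libraries, and in the next class 8.10% and 26.8%. The 27191 regions are called candidates below, and the 459 selected regions were 1.69% of them. In the opposite direction, 172 of 25865 regions with peaks in both Baf53a tamoxifen and both Brg1 tamoxifen libraries had no peak in either Baf53a ethanol library, a share of 0.665%.

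The label of these regions as dependent on Baf53a rests on the absence of a called peak, and most of the regions chosen changed when list lengths were made equal. When every list was reduced to the 46431 peaks with the highest score, 414 regions met the rule and 421 met the reverse, shares of 1.94% and 2.01%. The larger share in the direction of the rule was therefore not seen at equal numbers. Of the 459 regions, 68 (14.8%) met the rule at equal numbers as well. Reducing a list only removes peaks, so none of the rest left the rule by gaining a Baf53a tamoxifen peak. Their departure therefore cannot show whether the dependence on Baf53a holds. Each of the 6 libraries narrows the rule. With the demand on 1 library dropped, 614 regions met it without Baf53a ethanol replicate 1, 947 without ethanol replicate 2, 2068 without tamoxifen replicate 1 and 1121 without tamoxifen replicate 2. Without Brg1 tamoxifen replicate 1 the number was 715, and without replicate 2 it was 1916. The reverse was met by 1209 regions (4.67%) without Baf53a ethanol replicate 1, a larger share than the 2.21% that met the rule. With any other of these libraries dropped, fewer regions met the reverse than the rule, from 282 to 800.

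Most of the selected regions were weak among the candidates, and few were strong. The mean percentile over the 4 lists that had to hold a peak had a median of 43.7, with an interquartile range from 34.4 to 53.0 and extremes of 10.4 and 86.2. In single lists the median percentile was 49.0 and 40.8 in Baf53a ethanol replicates 1 and 2, and 52.7 and 36.8 in Brg1 tamoxifen replicates 1 and 2. The 24461 candidates with a peak in both Baf53a tamoxifen libraries are called kept regions here, and their medians in the same lists were 86.0, 82.5, 84.3 and 71.1. When the candidates were ordered by mean percentile into 5 equal classes, 384 of the 459 regions (83.7%) fell in the weakest class, 65 in the next, 9 in the middle one, 1 in the fourth and 0 in the strongest. They made up 7.06% of the weakest class and 1.20% of the next.

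At the edge of the rule, membership turned on single peaks of any strength. The weakest peak that counted for a selected region lay at the 0.0711 percentile of its list. Just outside the rule, 2271 candidates had a peak in 1 Baf53a tamoxifen library. Of these, 1609 had it in replicate 1, with a median percentile of 54.6 there and a range from 0.122 to 97.8. The other 662 had it in replicate 2, with a median of 54.8 and a range from 0.549 to 96.1. A further 1457 regions missed the rule only for want of a peak in the short Brg1 tamoxifen replicate 2 list, against 256 for replicate 1, 155 for Baf53a ethanol replicate 1 and 488 for replicate 2.

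The strongest selected region lay on chromosome 4 from 146824206 to 146824589, 384 bp wide, and held a peak in 15 of the 18 libraries. Its percentile was 91.0 and 78.6 in the Baf53a ethanol lists, 94.2 and 81.0 in the Brg1 tamoxifen lists, and 91.5 and 86.8 in the Brg1 ethanol lists. In DMSO it was 75.8 and 74.8 at 24 h and 74.9, 60.5 and 84.8 at 1 h. With ICRF-193 it was 80.3 in replicate 1 at 24 h, with no peak in replicate 2, and 81.7, 83.9 and 82.6 at 1 h. It ranked at the 60.5 percentile or higher in every library that held it. The nearest peaks of the Baf53a tamoxifen lists lay 568 and 513 bp from its edge.

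The next region, on chromosome 14 from 93615642 to 93615972, stood far from any peak of the Baf53a tamoxifen lists, with gaps of 41819 and 52371 bp. Its percentile was 82.5 and 81.8 in Baf53a ethanol, 84.3 and 75.5 in Brg1 tamoxifen, and 85.6 and 72.2 in Brg1 ethanol. The DMSO libraries gave 70.9 and 85.8 at 24 h and 80.8, 22.4 and 92.1 at 1 h. The ICRF-193 libraries gave 67.2 and no peak at 24 h and 88.7, 70.4 and 69.3 at 1 h. The value of 22.4 came from DMSO 1 h replicate 2, a list of 58532 peaks.

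The third region, on chromosome 18 from 65375881 to 65376220, had no peak in either Brg1 ethanol library although it had one in both Brg1 tamoxifen libraries, at percentiles of 84.8 and 71.1. Its Baf53a ethanol percentiles were 65.4 and 81.8. It held a peak in all 5 DMSO and in 4 of 5 ICRF-193 libraries, between the 51.6 and 86.9 percentiles. By peak calls it was therefore gained after Brg1 deletion and lost after Baf53a deletion. The nearest Baf53a tamoxifen peaks were 63785 and 84261 bp away.

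The other 7 of the 10 strongest regions lay on chromosomes 1 and 3, with mean percentiles from 71.1 to 74.99 over the 4 required lists. Those on chromosome 1 ran from 149152556 to 149153046, from 141237073 to 141237314, from 179737036 to 179737351, from 182824325 to 182824944 and from 91092764 to 91093106, and they held peaks in 9 to 11 of the 12 libraries that the rule did not use. Those on chromosome 3 ran from 130978386 to 130978682 and from 156931709 to 156932148. The former held a peak in 2 of the 12 other libraries, Brg1 ethanol replicate 1 (59.4) and DMSO 1 h replicate 1 (65.0). The latter held one in all 5 DMSO libraries and in 1 of 5 ICRF-193 libraries, replicate 3 at 1 h. The region on chromosome 1 from 149152556 reached the 90.8 to 94.8 percentiles in the 4 DMSO libraries that held it, 93.3 and 83.1 in Brg1 ethanol, and 71.9 and 87.6 in Baf53a ethanol. Its nearest Baf53a tamoxifen peaks were 454 and 70363 bp away.

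**Figure D1:**
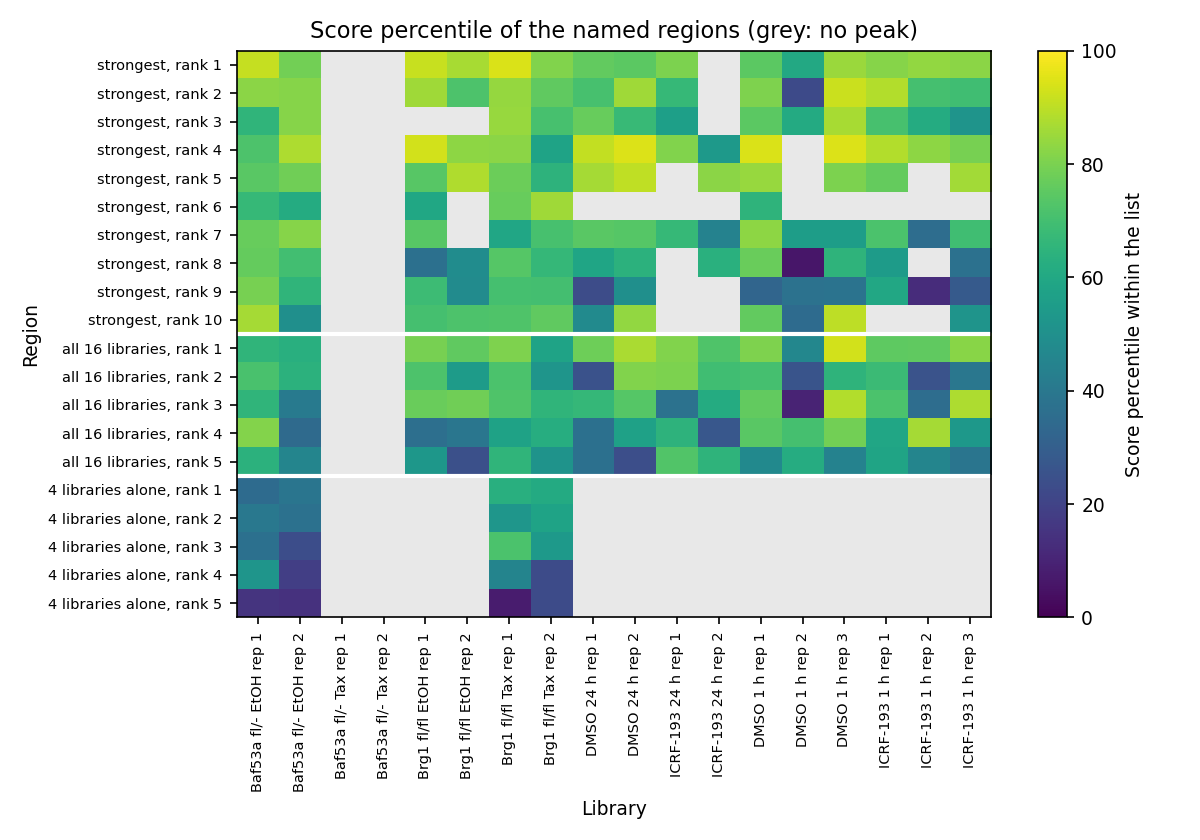
Score percentile (colour, 0 to 100 within each list) of 20 selected regions in rows across the 18 libraries in columns; grey marks no peak. The 10 strongest regions come first, then the 5 strongest with a peak in all 16 libraries other than Baf53a tamoxifen, then the 5 with peaks in the 4 required libraries alone; the 2 Baf53a tamoxifen columns are empty by the rule.

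A small number of regions lacked a peak in the Baf53a tamoxifen libraries and in no other library. There were 24 such regions (5.23% of 459), with a peak in all 12 libraries outside the rule. The strongest lay on chromosome 7 from 60024506 to 60024760. Its percentile was 65.4 and 63.2 in Baf53a ethanol, 80.7 and 57.8 in Brg1 tamoxifen, 79.7 and 75.5 in Brg1 ethanol and from 46.4 to 93.0 over the 10 wild-type libraries. The nearest Baf53a tamoxifen peaks were 25720 and 36333 bp away. A region on chromosome 8 from 92524692 to 92525335 was the most isolated of the 20 named, with gaps of 150219 and 162307 bp to the nearest Baf53a tamoxifen peaks. Its percentile was 65.4 and 40.8 in Baf53a ethanol and 72.4 and 65.2 in Brg1 tamoxifen. The others of the 5 strongest ran on chromosome 8 from 60272345 to 60272747 and from 127473062 to 127473920, and on chromosome 16 from 30069656 to 30071031. The region starting at 127473062 lay 935 and 83 bp from Baf53a tamoxifen peaks.

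At the other end, 5 regions (1.09%) held peaks in the 4 required libraries and nowhere else. The first lay on chromosome 10 (76431017 to 76431305), the second on chromosome 16 (98252344 to 98252644) and the third on chromosome 17 (35773453 to 35773753). The remaining ones were on chromosome 4, at 109996464 to 109996800 and at 84267824 to 84268230. Their mean percentiles were 49.4, 46.9, 46.6, 34.8 and 15.0 in that order. The one on chromosome 10 had 34.8 and 39.0 in Baf53a ethanol and 63.0 and 61.0 in Brg1 tamoxifen.

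Detection in libraries that the rule did not use lay between that of kept regions and that of regions lost in both lines. The selected regions held a peak in a median of 6 of 10 wild-type libraries, against 10 for kept regions and 3 for the 4222 regions without a peak in either Baf53a tamoxifen or either Brg1 tamoxifen library. These 4222 are called lost in both lines for short, and the name asks for no peak in Brg1 ethanol. Both Brg1 ethanol libraries held 1148 of them (27.2%), and neither held 1627 (38.5%), where no loss in the Brg1 line can be seen. The sets are defined by peak calls and differ in strength, so their order in detection is a description. The mean percentile over the Baf53a ethanol lists had a median of 83.5 in kept regions, 43.7 in selected regions and 36.6 in regions lost in both lines. At least 1 of 5 DMSO libraries held 437 of the 459 regions (95.2%), and all 5 held 114. All 5 ICRF-193 libraries held 52, and 9 regions had no peak in any wild-type library. The most frequent number of the 12 other libraries with a peak was 9 (63 regions), while 18061 of the kept regions (73.8%) had a peak in all 12.

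**Figure D2:**
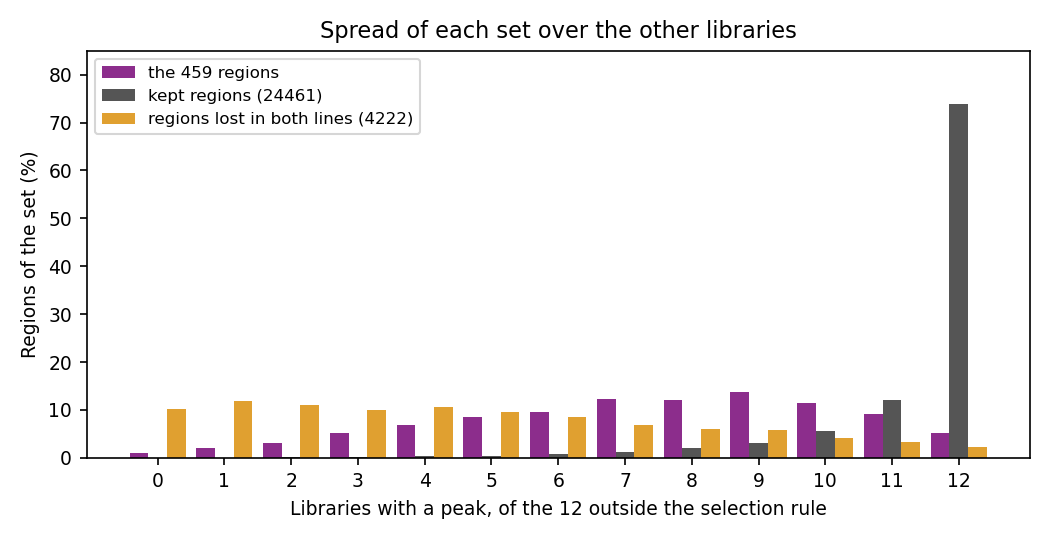
Share of each set of regions (y axis, percent) by the number of the 12 libraries outside the rule that held a peak (x axis). The 459 regions spread over all numbers with most between 5 and 11, kept regions stand at 12 (73.8%), and regions lost in both lines are spread from 0 upward and thin out to 2.23% at 12.

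In the Brg1 line before deletion, 313 of the 459 regions (68.2%) held a peak in ethanol replicate 1 and 294 (64.1%) in replicate 2, a mean of 66.1% ± 2.93 (SD, n = 2). Both ethanol libraries held 216 regions (47.1%), 1 of them held 175 (38.1%) and neither held 68 (14.8%). Kept regions were detected at 98.0% and 97.6%. The rule asks for a peak in both Brg1 tamoxifen libraries and so forces regions to look retained or gained after Brg1 deletion. The Brg1 contrast is therefore not tested here. The 68 regions with no ethanol peak count as gained by peak calls; they were 4.33% of the 1571 regions gained after Brg1 deletion, which in turn were 4.97% of the 31610 regions shared by the Brg1 tamoxifen libraries. Where both ethanol libraries held a peak, the Brg1 tamoxifen percentile minus the ethanol percentile had a median of -2.52 (interquartile range -17.7 to 11.6, 216 regions), against -2.81 (-12.3 to 1.64) in kept regions.

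Regions with peaks in both Brg1 ethanol libraries were also the ones most often open in wild-type cells. Their mean detection was 76.9% in DMSO and 63.3% with ICRF-193. With 1 ethanol peak the values were 63.0% and 47.7%, and with none they were 49.7% and 32.9%. Their median mean percentile in the required lists fell in the same order, from 48.2 to 40.8 and 39.1.

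In wild-type cells fewer of the regions held a peak with ICRF-193 than with DMSO on average at both times, by an amount that did not pass its test. At 24 h the DMSO libraries held 66.4% and 76.7% of the 459 regions and the ICRF-193 libraries 57.5% and 46.8%. These groups did not overlap. The means were 71.6% ± 7.24 and 52.2% ± 7.55 (SD, n = 2 each), a difference of -19.4 percentage points, and the two-sided exact permutation p of 0.33 is the smallest that 2 against 2 libraries allow. At 1 h the DMSO libraries held 81.9%, 36.6% and 76.3% and the ICRF-193 libraries 64.7%, 30.5% and 64.7%, so that the groups overlapped; the ICRF-193 value was the lower one in each of the 3 same-numbered pairs. The means were 64.9% ± 24.7 and 53.3% ± 19.7 (SD, n = 3 each), a difference of -11.6 points with an exact permutation p of 0.5, where 3 against 3 cannot go below 0.1. Without ICRF-193 1 h replicate 2 that difference shrank to -0.22 points, and without DMSO 1 h replicate 2 it grew to -25.8. It was -3.12 without DMSO 1 h replicate 1 and -5.95 without DMSO 1 h replicate 3.

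Over both times together the difference was -15.5 points, with a two-sided exact stratified permutation p of 0.1333 over 120 arrangements. It was -9.80 points without ICRF-193 1 h replicate 2 and -22.6 points without DMSO 1 h replicate 2. Adjusted over the 4 detection tests, the p-values were 0.4444 at 24 h, 0.5 at 1 h and 0.2667 over both times. The difference between the times, -7.77 points, had an exact permutation p of 0.75. List length moved with treatment. The 24 h replicate 1 lists were equally long (98440 peaks with ICRF-193 and 98166 with DMSO) and differed by -8.93 points, while the replicate 2 lists (76898 and 127030 peaks) differed by -29.8 points. With each list at 46431 peaks the rule chose 414 regions, 68 of them among the 459 selected regions. For those 414 regions the difference over both times was -3.54 points (exact permutation p = 0.2167). The difference of the 459 regions was not measured at equal list lengths, so the part of list length in it was not tested.

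Kept regions were near the ceiling in DMSO, with a mean detection of 95.9% over the 5 libraries, which limits how their change can be compared. In the weakest strength class, which holds 384 of the 459 regions, detection went from 65.5% to 51.2% in selected and from 85.9% to 75.5% in kept regions, differences of -14.2 and -10.4 points. That class spans mean percentiles from 10.4 to 57.8, and strength was not matched within it. Over all strengths the per-library difference between selected and kept regions changed by -12.0 points from DMSO to ICRF-193 over both times (exact stratified permutation p = 0.1167, adjusted p = 0.2667). The difference was larger with ICRF-193 in each of the 3 same-numbered pairs at 1 h and in both libraries at 24 h. When kept regions were weighted to the strength classes of the selected ones, a comparison added after the data were seen, the change was -5.46 points (exact permutation p = 0.1), and 1 h replicate 2 went the other way, at -25.3 points with ICRF-193 and -28.4 with DMSO. Without DMSO 1 h replicate 2 the unweighted change was -17.2 points with an exact permutation p of 0.01667. Other settings of the rule chose other sets of regions. With peaks required to cover 50% of a region, the change was -13.3 points for the 162 regions chosen (exact permutation p = 0.03333). At equal numbers of peaks it was -2.01 points for the 414 regions chosen (exact permutation p = 0.4167).

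**Figure D3:**
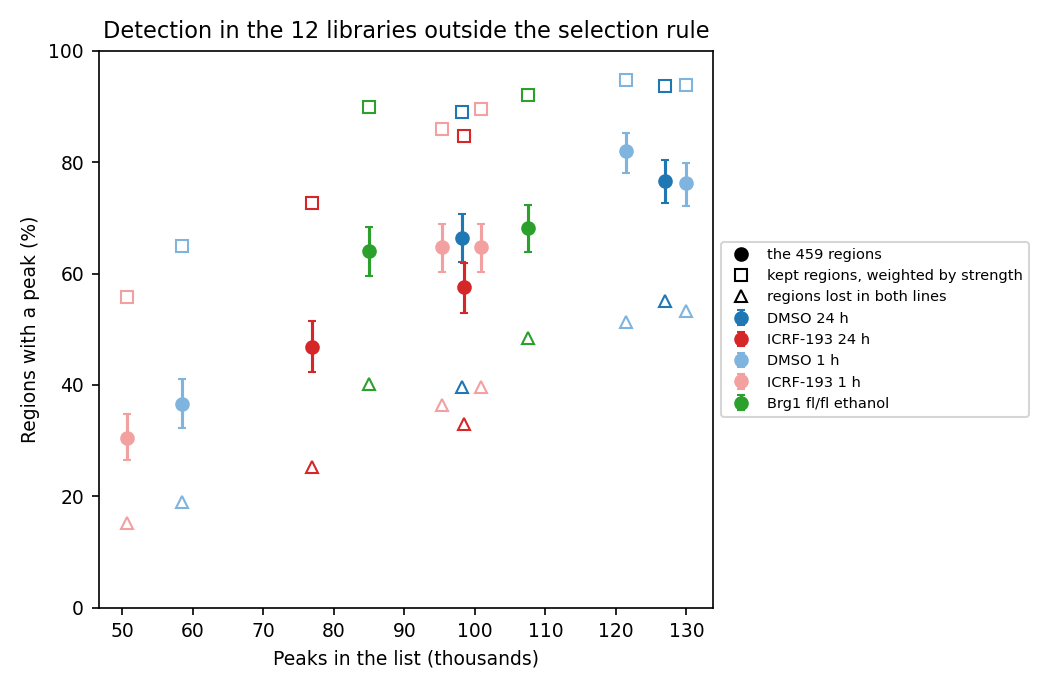
Percent of regions with a peak (y axis) against the number of peaks in the list (x axis) for the 12 libraries outside the rule, coloured by group. Filled circles with 95% Wilson intervals, which cover counting of regions only, are the 459 regions and run from 30.5% to 81.9%. Open squares are kept regions weighted to the 5 strength classes of the 459, with strength not matched within a class. The squares lie above the circle in each library, and triangles are regions lost in both lines and lie below it.

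Single-region calls for ICRF-193 came close to the background of all regions. Of the 265 selected regions in both DMSO 24 h libraries, 46 (17.4%, 95% Wilson interval 13.3 to 22.4) had no peak in either ICRF-193 24 h library, against 15.5% of all 65604 regions that could be so called. Of the 141 in both ICRF-193 24 h libraries, 9 (6.38%) had no DMSO 24 h peak, against a background of 5.46%. At 1 h, with the stricter demand on all 3 libraries, 5 of 138 (3.62%) were lost against 2.28% of all, and 1 of 94 (1.06%) was gained against 0.375%. The share lost at 24 h was 1.64% of kept regions and 29.3% of regions lost in both lines.

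At like strength the selected regions were still detected less often elsewhere than kept ones. In each band of 10 percentiles from 20 to 80, the selected regions were held by fewer DMSO libraries on average than kept regions of the same band. From the 40 to the 50 percentile, 129 selected regions were detected at a mean of 67.3% in DMSO, 52.7% with ICRF-193 and 65.9% in Brg1 ethanol, and the 1230 kept regions at 84.8%, 73.7% and 88.2%. From 60 to 70, the 47 selected regions had 74.9% in DMSO and the 3834 kept regions 94.0%. From 20 to 30, where 64 selected and 93 kept regions remained, the values were 63.4% and 71.6%. Kept regions have, by their definition, a peak in both Baf53a tamoxifen libraries as well, and the part of that choice was not tested. Among the selected regions themselves, the weakest 153 were detected at 60.8% in DMSO, the middle 153 at 66.4% and the strongest 153 at 75.6%.

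The regions were narrow. Their median merged width was 463 bp (interquartile range 358 to 598.5), against 821 bp for kept regions and 345 bp for regions lost in both lines, and 14 of them (3.05%) reached 1 kb, against 33.3% of kept regions. Peaks themselves were narrow as well, with a median width of 212 and 178 bp in the Baf53a ethanol lists and 208 and 152 bp in the Brg1 tamoxifen lists, where kept regions had 515, 408, 443 and 275 bp. Width did not grow with strength as it did in kept regions. From the 20 to 30 percentile band to the 70 to 80 band, the median Baf53a ethanol peak of kept regions widened from 194.5 to 416 bp. That of the 442 selected regions in these bands went from 185 to 165.5 bp, with 204 bp in the 40 to 50 band. The 70 to 80 band held 10 selected regions. Score and width come from the same peak calls, and those in the required lists helped to choose the regions, so these widths are a description.

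**Figure D4:**
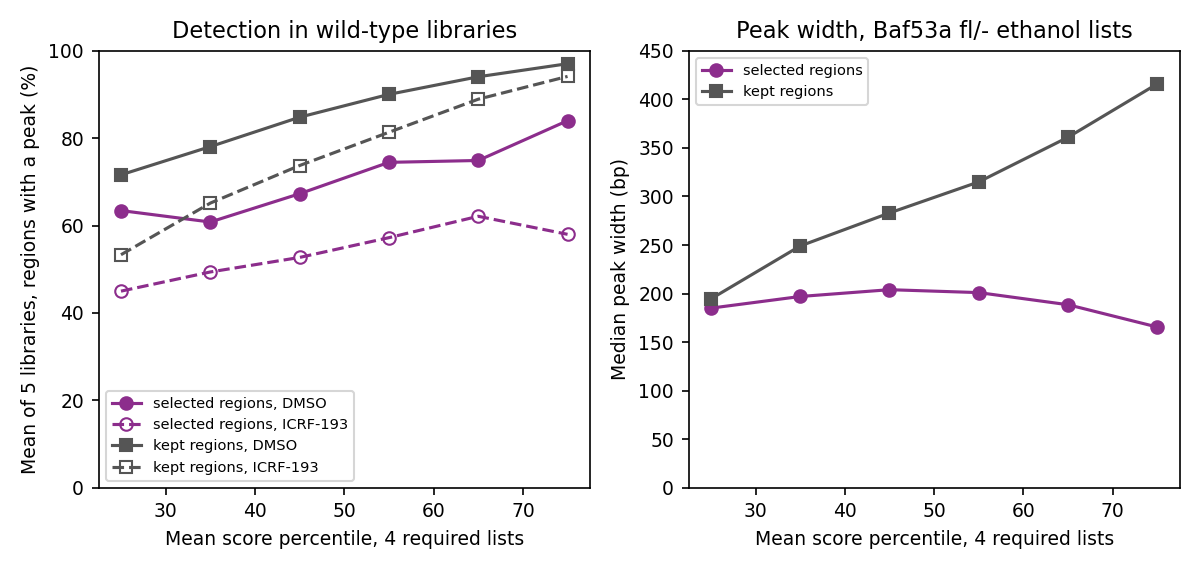
Left, mean percent of regions with a peak over 5 DMSO (solid) and 5 ICRF-193 (dashed) libraries; right, median peak width in bp in the Baf53a ethanol lists; both against the mean score percentile in the 4 required lists, in bands of 10. Circles are the 442 selected regions between the 20 and 80 percentiles and squares kept regions; kept regions rise with strength in both panels, and the width of the 442 stays between 165.5 and 204 bp.

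The regions were spread over the genome, with no chromosome far from its share. Chromosomes 1 to 19 and X held 10 to 37 of them, with 37 on chromosome 5, 35 on chromosome 2 and 10 on X. As a share of candidates the values ran from 1.31% on chromosomes 6, 12 and 17 to 2.13% on chromosome 14, and each chromosome's 95% Wilson interval held the 1.69% of all candidates. X, with 10 of 617 candidates, had 1.62%. None of the 24 candidates on Y was selected, which allows a share of up to 13.8% by the upper Wilson bound.

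**Figure D5:**
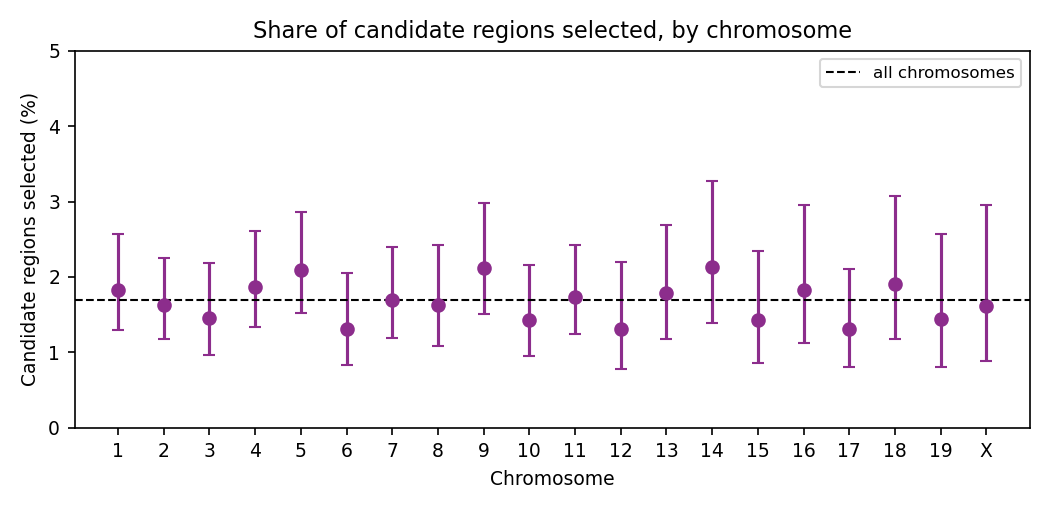
Share of candidate regions that were selected (y axis, percent) on chromosomes 1 to 19 and X (x axis), with 95% Wilson intervals over regions. The dashed line is the share over all chromosomes, 1.69%, and passes through each interval; Y, with 24 candidates, is not drawn.

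Few selected regions followed one another along a chromosome, at a share whose interval held that of all candidates. The next candidate along the chromosome was also selected for 5 of 459 regions, 1.09% (95% Wilson interval 0.466 to 2.52), against the 1.69% of all candidates. There were 5 such pairs and 0 runs of 3 or more. The gap to the nearest other selected region had a median of 1.49 Mb, and 34 regions (7.41%) had one within 100 kb. These gaps are given without a background and are a description. The closest pair, on chromosome 5 from 123825265 to 123825712 and from 123832728 to 123832979, was 7015 bp apart and is named after its values were seen.

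Distances to kept regions and to Baf53a tamoxifen peaks were of the order of kilobases. The median gap to the nearest kept region was 15763 bp, against 18382 bp between a kept region and its nearest kept neighbour and 25997 bp from regions lost in both lines to a kept region. The nearest peak of Baf53a tamoxifen replicate 1 was a median of 5816 bp away and that of replicate 2 a median of 6040 bp. It lay within 1 kb for 82 regions (17.9%) in replicate 1 and 73 (15.9%) in replicate 2, and 10 kb or more away for 146 (31.8%) and 136 (29.6%). No other set of regions stands beside these distances to Baf53a tamoxifen peaks, so they cannot be read as near or far.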

How the data were processed

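ATAC-seq peak lists of 18 libraries of mouse ES cells were used, 1 list per sample and not pooled, grouped by sample title. The submitters' processing notes name MACS2, Bowtie 0.12.9, edgeR 3.12.1 and the mm9 build, without saying what each was used for. The sources used here give no read shift, blacklist or calling threshold. The score deposited by the authors for each peak (lowest 3.15 to 3.63 across lists, no unit stated) was used only as a percentile within its list. The other deposited values are start and end positions.

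Overlapping peaks of the 18 lists (1 bp was enough) were merged, and a library held a region with any of its peaks. The merge gave the same 377189 regions with bedtools 2.31.1, and the selection was tested on simulated lists. The members and groups of regions were chosen with earlier results of these data known. The test used was the two-sided exact permutation test on the percent of regions detected per library, within each time, run with scipy 1.17.1, pandas 2.3.3 and numpy 2.4.6 under Python 3.11.15, with Benjamini-Hochberg adjustment over 4 tests. Strength classes and bands used the mean percentile of the 4 required lists. Wilson intervals (95%) treat regions as independent, cover counting of regions only and say nothing of the unknown read depth. Alternatives were other merging rules, 50% coverage, equal numbers of peaks, the top 75% of each list, each library left out, and the replicate number as a block.

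Replicate numbers are shared across groups in the titles, and the labels do not say what they mark. Over candidate regions, deviations of same-numbered DMSO and ICRF-193 libraries from their group means correlated at 0.15, 0.28 and 0.13 at 1 h. Differently numbered libraries there ran from -0.21 to 0.14, the highest being DMSO replicate 3 with ICRF-193 replicate 1. The numbers may pair the 1 h libraries, which these values do not settle. At 24 h the same-numbered value was -0.01. With 2 libraries per group all values there are 1 number up to its sign, which cannot show whether the libraries are paired. The tests in the results are unpaired at both times, and the block alternative uses the numbers at both times. Deposited names also carry 1 prefix for replicate 1 and another for replicates 2 and 3, and the values by replicate stand in the results.

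Named regions were the 10 with the highest mean percentile over the required lists, the 5 highest with a peak in all 16 libraries other than Baf53a tamoxifen, the 5 highest with peaks in the required 4 alone, and runs of 3 or more neighbouring candidates. No gene or sequence was assigned, because the reference tables follow another build than the lists.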

Additional observations from a re-analysis of the deposited data

How the results depend on the processing

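Of 459 regions, 439 met the rule with peaks up to 100 bp apart merged (463 regions in all) and 426 with only the 6 rule lists merged (458). With peaks covering 50% of a region, 162 regions met the rule, 2.74% of candidates, 27 of the 459 among them. In that setting 37.7% were held by both Brg1 ethanol libraries and the change relative to kept regions was -13.3 points (exact permutation p = 0.03333). The share of candidates was 1.94% at equal numbers of peaks and 1.42% with the top 75% of each list, where 204 of the 459 remained. Leaving out 1 rule library relaxes the rule and gave 614 to 2068 regions, 2.21% to 7.61% of candidates, with 38.2% to 69.5% held by both Brg1 ethanol libraries and 1.79% to 8.28% followed by another selected candidate.

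Leaving out 1 library, the ICRF-193 differences ran from -24.7 to -14.1 points at 24 h, -25.8 to -0.22 at 1 h, -22.6 to -9.80 over both times, and -17.2 to -8.39 relative to kept regions. With the replicate number as a block the differences were the same by construction, -19.4, -11.6, -15.5 and -12.0 points, with exact sign-flip p of 0.5, 0.25, 0.0625 and 0.0625, each the smallest possible. At both times this block rests on numbers that were not shown to pair the libraries. The block with weighted kept regions gave -5.46 points (exact p = 0.125). No difference changed sign in any alternative run. Read depth is unknown, so a missing peak may be an open site below the calling threshold.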

Other observations

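In 1 Mb bins, 344 of the selected regions were alone, 44 bins held 2 and 9 bins held 3, the highest number. The bin on chromosome 1 from 91000001 to 92000000 held 3 of 12 candidates and that on chromosome 18 from 60000001 to 61000000 held 3 of 13. Among the 9 bins with 3, these had the highest shares of candidates, 25% and 23.1%. The lowest was 7.32%, on chromosome 11 from 69000001 to 70000000. The named bins were picked for these values, and no test was made.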
